A study of Mus musculus with 2 samples.

Results

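*Mest*, *Nnat*, *Plagl1*, *Impact*, *Zrsr1*, *Nap1l5* and *Inpp5f* are 7 imprinted genes of the mouse that are expressed, as a whole or through one of their transcripts, from the allele inherited from the father. They were picked by name from the 31053 genes of the count matrices, without a threshold on any value but with earlier results of these data known. Their levels were described in 2 libraries of E14 cells, a mouse embryonic stem cell line, 1 from wild-type cells (WT) and 1 from cells labelled as *Smad1/5* double knockout (S1/5 dKO). Both lines were grown without feeder cells in serum medium with 15% FBS and 1000 U/ml LIF. The knockout was made with CRISPR-Cas9, and the labels name neither the clone nor the edited bases. Single-cell libraries were made with the Chromium 3′ kit (v3 chemistry), in which each mRNA molecule captured near its 3′ end is counted once through a unique molecular identifier (UMI). A barcode counted as a cell when 1000 or more genes were detected and no more than 5% of its UMIs were mitochondrial. This left 2236 WT cells and 2910 cells of the other library, with medians of 38662 and 34548.5 UMIs.

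*Smad1* and *Smad5* were looked at first. *Smad1* had 13.4 CPM (UMIs per 1000000 UMIs of all cells of a library) among WT cells and 9.17 CPM in the library labelled S1/5 dKO, from 1285 and 1000 UMIs, and *Smad5* had 6.05 and 9.09 CPM. *Smad1* lies at the end of a segment of chromosome 8 that was lower as a sum in that library (given below). Its lower level is therefore not separate from that of its neighbours. *Smad5* was not lower, and 3′ UMIs need not read the edited sequence, so these levels do not show whether the genes were disrupted. The library is therefore called the dKO-labelled library, and each direction below rests on that label. With the labels exchanged the ratio of *Mest*, for instance, would be 0.121. *Id1* and *Id3*, targets of BMP signalling through SMAD1 and SMAD5 that were added after their values were seen, were lower in the dKO-labelled library, the direction of its label, with 323.0 and 160.7 CPM (log2 ratio −1.01, −1.03 to −0.98) and 103.2 and 61.5 CPM (−0.75, −0.79 to −0.70). Naïve pluripotency markers were abundant in both libraries, with 13 of 13 listed genes detected and summed levels of 7455 and 7704 CPM. The 6 endoderm markers summed to 2.58 and 2.46 CPM, the 6 mesoderm markers to 2.38 and 1.96 CPM, the 6 neural markers to 162.4 and 171.1 CPM and the 6 fibroblast markers to 0.802 and 1.05 CPM. The 7 markers of 2-cell-like cells, a rare state of these cultures, summed to 1.88 and 4.82 CPM. Of 4 with at least 50 UMIs, all were higher in the dKO-labelled library and 2 at least 2-fold, *Tcstv3* with 14 and 177 UMIs and *Usp17la* with 13 and 60, and *Tcstv1* was at 0 in WT. Their part in the difference between the libraries was not tested. Of the listed fibroblast markers, *Col3a1* and *Lum* were at 0 in both libraries. *Thy1* had 60 UMIs in WT and 89 in the dKO-labelled library, *Col1a1* 15 and 20, *Col1a2* 2 and 4, and *Postn* 0 and 1. No cell barcode was shared by the libraries (0 cells). With 1 library per genotype there is no spread between cultures, so no test was run. Every interval below is an exact 95% interval that covers counting error only.

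Imprinted genes keep a methylation mark that was set in one parental germ line, and for most paternally expressed genes this mark lies on the silent maternal copy, at or near the promoter. In the early embryo and in mouse embryonic stem cells the mark is held by the zinc finger protein ZFP57, which binds the methylated hexamer TGCCGC and recruits TRIM28, and it is known to be lost or gained at some loci when these cells are cultured. A cell in which both copies carry the mark may express little of the gene, and a cell in which neither does may express both copies, so imprinted genes are a known source of differences between individual stem cells and between sublines.

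The promoters of *Mest*, *Nnat*, *Plagl1* and *Nap1l5* are shown because these 4 genes differed most between the libraries. Each sequence comes from RefSeq on GRCm38.p6 and covers the 250 bases before the transcript start and the 50 bases after it, written 5′ to 3′ in the direction of the gene. *Mest* is at chr6:30737800-30738099 (plus strand), *Nnat* at chr2:157559828-157560127 (plus), *Plagl1* at chr10:13090582-13090881 (plus) and *Nap1l5* at chr6:58907077-58907376 (minus). Capitals mark the hexamer TGCCGC or its reverse complement GCGGCA.
Mest: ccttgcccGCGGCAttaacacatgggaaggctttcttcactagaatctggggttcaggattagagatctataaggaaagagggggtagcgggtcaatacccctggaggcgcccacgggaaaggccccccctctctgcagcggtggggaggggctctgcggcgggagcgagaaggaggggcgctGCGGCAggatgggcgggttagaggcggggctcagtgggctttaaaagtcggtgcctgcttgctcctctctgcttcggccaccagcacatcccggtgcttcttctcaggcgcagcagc
Nnat: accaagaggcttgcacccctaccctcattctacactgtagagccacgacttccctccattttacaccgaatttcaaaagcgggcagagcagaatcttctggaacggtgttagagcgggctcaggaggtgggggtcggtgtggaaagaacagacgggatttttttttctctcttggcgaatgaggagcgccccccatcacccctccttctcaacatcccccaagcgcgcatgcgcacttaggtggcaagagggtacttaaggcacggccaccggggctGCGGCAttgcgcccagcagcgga
Plagl1: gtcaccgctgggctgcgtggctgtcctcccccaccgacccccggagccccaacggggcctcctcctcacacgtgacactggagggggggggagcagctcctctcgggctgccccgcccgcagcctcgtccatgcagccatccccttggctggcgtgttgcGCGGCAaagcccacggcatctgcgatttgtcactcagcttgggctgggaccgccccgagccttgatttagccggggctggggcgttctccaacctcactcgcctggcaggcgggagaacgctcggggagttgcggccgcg
Nap1l5: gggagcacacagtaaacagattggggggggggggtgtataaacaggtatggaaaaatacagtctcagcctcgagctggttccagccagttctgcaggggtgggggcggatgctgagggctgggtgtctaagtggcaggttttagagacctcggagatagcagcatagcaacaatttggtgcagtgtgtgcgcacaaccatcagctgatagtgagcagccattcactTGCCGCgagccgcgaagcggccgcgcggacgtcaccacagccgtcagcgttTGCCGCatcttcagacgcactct
Each of the 4 windows holds the hexamer, with 2 copies for *Mest*, 1 for *Nnat*, 1 for *Plagl1* and 2 for *Nap1l5*. Among all 32851 promoter windows of the same length, 11.6% hold at least 1 copy on either strand and 1.53% hold 2 or more. The windows have 17, 17, 26 and 17 CpG dinucleotides, where the median window has 7. An upstream start of *Mest*, at chr6:30733256-30733555, has 8 CpG and no TGCCGC. The windows of *Zrsr1* (10 CpG) and of the long form of *Inpp5f* (15 CpG) also hold none, and no window of *Impact* was examined. The SMAD-related letters GGCGCC were found in 1 of the 4 windows, that of *Mest*, and in 11.9% of all windows, GGAGCC in that of *Plagl1* and in 30.8% of all. GTCT, present in 88.0% of all windows, was in those of *Nnat* and *Nap1l5*. These matches describe letters in a window and are no evidence of binding.

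By their roles the 7 genes form no single pathway. *Mest* encodes a hydrolase-like protein of the endoplasmic reticulum, and *Nnat* a small membrane proteolipid, neuronatin, of the same compartment. *Plagl1* (*Zac1*) encodes a zinc finger transcription factor. *Impact* encodes a regulator of the translation-control kinase GCN2. *Zrsr1* encodes an RNA-binding splicing factor, *Nap1l5* a relative of the nucleosome assembly protein NAP1, and *Inpp5f* a phosphoinositide phosphatase. They lie on 6 chromosomes. In the GENCODE annotation of GRCm38, *Mest* (ENSMUSG00000051855) spans 30723547 to 30748465 and *Nap1l5* 58905233 to 58907076 on chromosome 6. *Nnat* spans 157560078 to 157562522 on chromosome 2, *Plagl1* 13060504 to 13131694 on chromosome 10, *Impact* 12955852 to 12992950 on chromosome 18, *Zrsr1* 22972005 to 22976496 on chromosome 11 and *Inpp5f* 128611328 to 128696425 on chromosome 7. *Nnat*, *Zrsr1* and *Nap1l5* lie within host genes on the other strand, *Blcap*, *Commd1* and *Herc3*. The imprinted transcript of *Inpp5f* starts inside the gene and shares its 3′ end, so 3′ UMIs do not separate it from the long form, which comes from both alleles.

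All 7 genes were higher in the dKO-labelled library, and *Mest*, *Nnat*, *Nap1l5* and *Plagl1* by ratios of 6.28 to 8.26. *Mest* had 1087 UMIs in WT and 10203 in the other library, or 11.3 CPM (10.7 to 12) and 93.6 CPM (91.8 to 95.4), a ratio of 8.26 (7.76 to 8.80). *Nnat* had 300 and 2714 UMIs, or 3.13 CPM (2.78 to 3.50) and 24.9 CPM (24.0 to 25.8), a ratio of 7.96 (7.07 to 9.0). These were nearly the same ratio at levels that differed between the genes, and the intervals of both ratios overlapped.

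*Plagl1* had far fewer UMIs, 51 and 364, or 0.531 and 3.34 CPM, a ratio of 6.28 (4.68 to 8.60). *Nap1l5* was close to absent in WT, with 8 UMIs in 8 cells, and had 65 UMIs in the other library, a ratio of 7.15 whose interval is wide (3.42 to 17.3). *Impact*, already well expressed in WT, had 4393 and 9660 UMIs, or 45.8 CPM (44.4 to 47.2) and 88.6 CPM (86.8 to 90.4), a ratio of 1.94 (1.87 to 2.01). Its interval includes a doubling. *Zrsr1* had 4.11 and 6.44 CPM, a ratio of 1.57 (1.38 to 1.78), and *Inpp5f* 7.80 and 10.6 CPM, a ratio of 1.36 (1.23 to 1.49). The order of the ratios therefore separated 4 genes with overlapping intervals, then *Impact*, then *Zrsr1* and *Inpp5f*, whose intervals overlapped each other but not that of *Impact*.

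**Figure D1:**
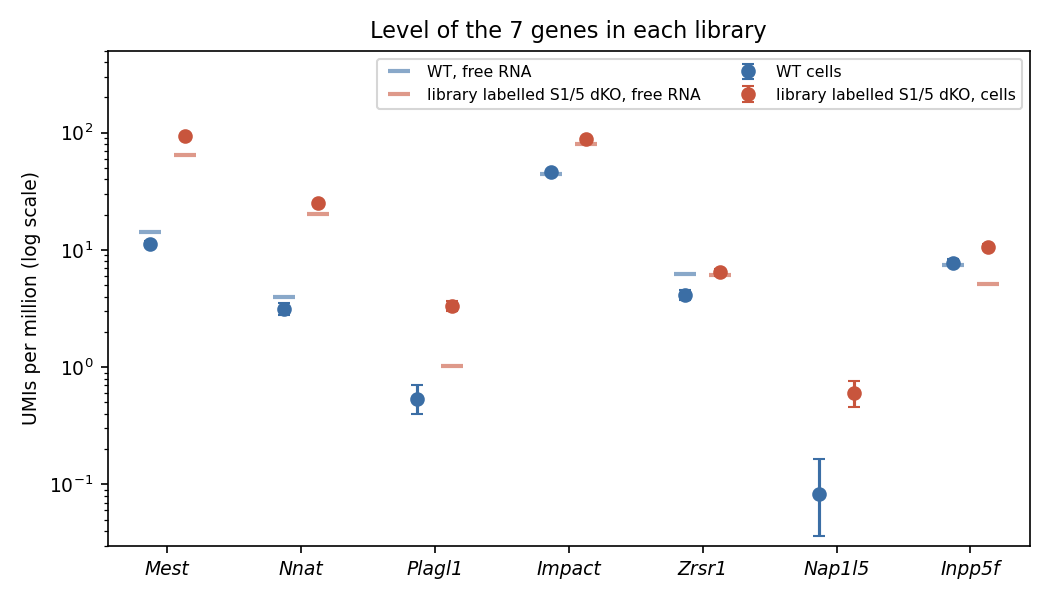
Level of each gene in CPM (log axis) in the cells of WT and of the dKO-labelled library, with exact 95% Poisson intervals as bars, and in free RNA (dashes, barcodes with 10 to 100 UMIs, not drawn where it was 0). All 7 cell levels are higher in the dKO-labelled library, by 8.26-fold for *Mest* and 1.36-fold for *Inpp5f*.

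Across all genes the libraries were much alike. Summed over both libraries, 13654 genes reached 50 UMIs. A ratio of 2 or more in favour of the dKO-labelled library was seen for 119 of them (0.872%), and in favour of WT for 59 (0.432%). Among the 7 imprinted genes, 4 were at least 2-fold higher and 0 at least 2-fold lower. Their median log2 ratio was 2.65, where that of all genes was −0.01, with the 5th and 95th percentiles at −0.44 and 0.40. Because the 7 genes were chosen with earlier results of these data known, their place among all genes is only a description. Ranked from the highest ratio, *Mest* was number 11, *Nnat* 12, *Nap1l5* 16, *Plagl1* 19, *Impact* 134, *Zrsr1* 318 and *Inpp5f* 598.

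**Figure D2:**
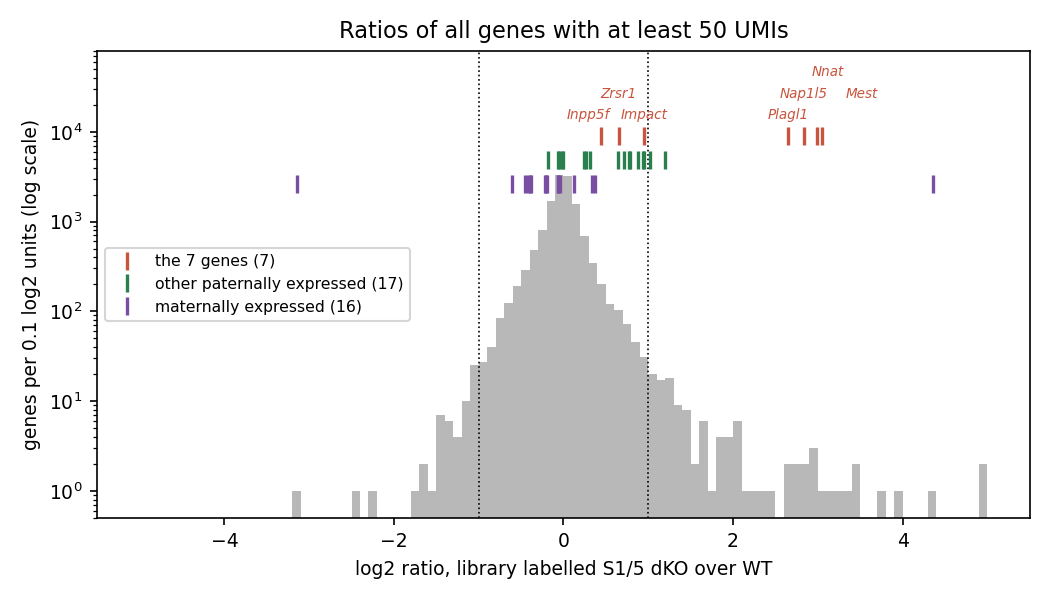
Histogram of the log2 ratio of the dKO-labelled library over WT for 13654 genes (gene number on a log axis, ratios beyond 4.9 drawn at the edge, dotted lines at 2-fold), with ticks for the 7 genes, 17 other paternally expressed genes and 16 maternally expressed genes. *Mest*, *Nnat*, *Nap1l5* and *Plagl1* lie between 2.65 and 3.05, and most other imprinted genes within 2-fold.

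Genes beside or around the 7 loci differed little between the libraries. *Copg2*, which overlaps the 3′ end of *Mest* on the other strand, had 10.6 and 9.27 CPM (log2 ratio −0.19, −0.32 to −0.06). *Blcap*, the host of *Nnat*, had a log2 ratio of −0.29 (−0.43 to −0.15), *Commd1*, the host of *Zrsr1*, of −0.05, and *Herc3*, the host of *Nap1l5*, of 0.24 (−0.10 to 0.57). Among the nearest protein-coding genes, *Cep41* beside *Mest* had a log2 ratio of 0.39, *Src* and *Ctnnbl1* beside *Nnat* −0.07 and 0.01, *Sf3b5* beside *Plagl1* 0.02, *Osbpl1a* beside *Impact* 0.11, and *Mcmbp* and *Bag3* beside *Inpp5f* −0.04 and 0.23. *Fam13a* beside *Nap1l5* had only 32 and 21 UMIs. None of these neighbours was 2-fold apart. Whether UMIs were assigned by strand is not given in the sources used here, so those of overlapping genes may be mixed in part. *Zrsr2*, the X-linked relative of *Zrsr1*, differed by a log2 ratio of −0.04, and how reads common to both were assigned is likewise not given.

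Other paternally expressed genes were mostly higher as well, by less. Of 17 with at least 50 UMIs among 25 found in the files, 12 were higher in the dKO-labelled library, 2 of them at least 2-fold and none (0) at least 2-fold lower, with a median log2 ratio of 0.64. Of all genes, 47.9% were higher in that library. *Peg10* had 24.5 and 55.9 CPM (log2 ratio 1.19, 1.13 to 1.26) and *Usp29* only 27 and 62 UMIs (1.02). *Snrpn* (0.95), *Peg3* (0.94), *Sgce* (0.88), *Mcts2* (0.78), *Sfmbt2* (0.77), *Nespas* (0.71) and *Zdbf2* (0.64) were between 1.5- and 2-fold higher, while *Slc38a4* (−0.02), *Zfp64* (−0.01), *Ndn* (−0.06) and *Mkrn3* (−0.18) were close to equal. Of 16 maternally expressed genes, 4 were higher and 12 lower, with a median of −0.20. The exceptions in size were *Grb10*, at 19.4 and 2.19 CPM (log2 ratio −3.15), and *H19*, with 4 and 93 UMIs (4.36).

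Factors of imprint maintenance differed little at the mRNA level. None (0) of 23 listed genes was 2-fold apart in either direction, with log2 ratios from −0.12 to 0.96. *Zfp57* was at 213.8 and 214.8 CPM (log2 ratio 0.01, −0.02 to 0.03), *Trim28* at −0.09, *Dnmt1* at 0.05, *Uhrf1* at 0.05 and *Kdm1a*, which encodes a histone demethylase, at −0.10 (−0.14 to −0.07). The highest was *Dppa3*, which encodes the methylation-protecting protein STELLA, with 2.31 and 4.49 CPM (log2 ratio 0.96, 0.73 to 1.19).

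*Mest* UMIs were gathered in a minority of WT cells. A *Mest* UMI was found in 250 of 2236 WT cells (11.2%, 9.90 to 12.6%), where 1 rate per UMI for all cells (a Poisson distribution at the depth of each cell) gives 37.0%. In those cells the counts were high, up to 15 UMIs, with 19 cells at 10 or more, and the tenth of cells with the most *Mest* held 97.6% of all *Mest* UMIs. *Mest* was detected in 2548 of 2910 dKO-labelled cells (87.6%, 86.3 to 88.7%), where 1 rate gives 93.3%, and the median cell had 3 UMIs.

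The pattern was also seen at equal depth. When each cell was thinned at random to 10000 UMIs, which left out 43 WT cells and 67 cells of the other library, *Mest* was found in 6.79% of WT cells (5.78 to 7.93%) and 56.1% (54.2 to 57.9%) of the others. The WT share was 66.3% of the Poisson value, where the median of 2071 genes of like mean level (within 1.5-fold) was 98.9%, and only 3 of these genes had a share as low. Over 4 equal groups of WT cells from shallow to deep, with median UMIs of 26400, 35082, 43438 and 61490, cells with a *Mest* UMI made up 9.12%, 10.4%, 12.3% and 12.9%. The first and the last of these shares had overlapping intervals (6.87 to 11.8% and 10.2 to 15.9%), while the share among dKO-labelled cells was 75.5% in the shallowest group and 95.9% in the deepest.

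A fit with a silent and an active class of cells put numbers on this. With zero-inflated Poisson counts, 11.8% of WT cells were in the active class, at 91.0 CPM. The same model gave 94.0% active cells at 98.8 CPM in the dKO-labelled library. In WT its log likelihood was 22.6 below that of a negative binomial without a silent class. With an added spread among active cells (zero-inflated negative binomial), the active class was 13% at 87.5 CPM, and the log likelihood was 44.2 above that of a negative binomial without a silent class. In the dKO-labelled library the same fit needed no silent class (100% active), with a dispersion of 0.289. These likelihoods describe the counts of the 2 libraries and are no test.

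No other gene of the 7 had so clear a silent class. For *Nnat*, 198 WT cells had a UMI (8.86%, where 1 rate gives 12.4%), and the zero-inflated Poisson fit gave 17.5% active cells at 17.7 CPM, but adding the silent class to the negative binomial gained only 1.18 in log likelihood. *Nnat* was found in 1539 cells of the dKO-labelled library (52.9%). *Plagl1* was found in 44 WT cells (1.97%) and 302 cells of the other library (10.4%), with 9.87% active WT cells at 5.32 CPM in the zero-inflated Poisson fit, from only 51 UMIs. *Impact* was found in 1643 WT cells (73.5%, where 1 rate gives 81.1%) and 2598 of the others (89.3% against 92.5%). Its spread in WT was fitted by a negative binomial with a dispersion of 0.396, and a silent class added nothing.

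*Zrsr1*, *Inpp5f* and *Nap1l5* were spread among WT cells nearly as 1 rate gives. They were found in 15.3%, 27% and 0.358% of WT cells, where 1 rate gives 15.9%, 27.6% and 0.357%. Among dKO-labelled cells they were 20.3%, 31.2% and 2.20%, against 21%, 31.8% and 2.20%. At 10000 UMIs per cell, the shares in WT and the other library were 2.60% and 20.9% for *Nnat*, 0.593% and 3.34% for *Plagl1*, 34.8% and 55.4% for *Impact*, 3.97% and 5.94% for *Zrsr1*, 0.0912% and 0.492% for *Nap1l5*, and 7.52% and 9.64% for *Inpp5f*.

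**Figure D3:**
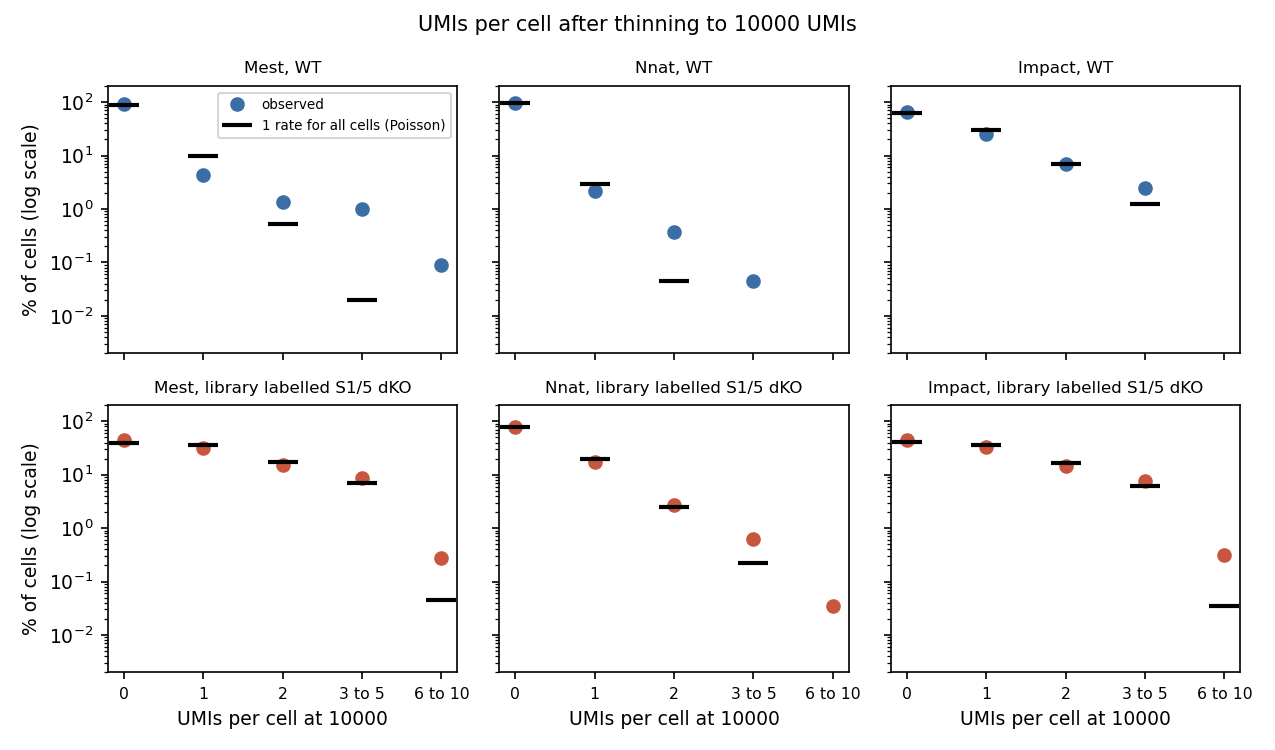
Share of cells (log axis) by number of UMIs per cell after thinning to 10000 UMIs for *Mest*, *Nnat* and *Impact*, with the share that 1 rate for all cells gives as black bars (those under 0.002% are below the axis). WT cells with 3 to 5 *Mest* UMIs make up 1.00% of cells, far above the bar, while the cells of the dKO-labelled library lie near the bars for *Mest* and *Impact* up to 5 UMIs.

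Free RNA held most of the same genes. In barcodes with 10 to 100 UMIs, too few for a cell, *Mest* was at 14.2 CPM (WT) and 64.9 CPM (dKO-labelled library), *Nnat* at 3.97 and 20.4 CPM and *Impact* at 44.8 and 80.2 CPM. *Zrsr1* at 6.23 and 6.13 CPM and *Inpp5f* at 7.37 and 5.11 CPM were not higher in free RNA of the dKO-labelled library. *Plagl1* had 0 and 2 UMIs there, and *Nap1l5* had 0 and 0. No cell type that lacks these genes is known in the libraries, so a background share of cells cannot be given. In WT, 37 of the 250 cells with *Mest* had a single UMI.

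WT cells with *Mest* also held more than their share of the UMIs of *Nnat*, *Plagl1*, *Impact* and *Zrsr1*, which lie on other chromosomes. The 250 WT cells with a *Mest* UMI, 11.2% of cells with 12.1% of all UMIs, held 161 of 300 *Nnat* UMIs (53.7%, 47.8 to 59.4%) and 32 of 51 *Plagl1* UMIs (62.7%, 48.1 to 75.9%). They also held 17.3% of *Impact* UMIs (16.2 to 18.5%) and 18.3% of *Zrsr1* UMIs (14.6 to 22.5%). For *Inpp5f* the share was 11.3% (9.17 to 13.8%), which includes their share of all UMIs. In the dKO-labelled library, the cells with *Mest* held 91.1% of all UMIs and between 90.5% and 93.8% of the UMIs of each of the other 6 genes.

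At the common depth of 10000 UMIs, 149 WT cells had a *Mest* UMI and 2044 had none. *Nnat* was detected in 10.7% of the former (6.26 to 16.9%) and 2.01% of the latter (1.44 to 2.71%), and 16 cells had both genes where independence gives 3.87 (ratio 4.13, 2.36 to 6.71). At 5000 UMIs only 2 cells had both (ratio 1.87, 0.226 to 6.74), whereas without thinning 99 cells did (ratio 4.47, 3.63 to 5.44). *Plagl1* was detected in 2.68% and 0.440%, with 4 cells against 0.883 (ratio 4.53, 1.23 to 11.6). *Impact* was detected in 51.0% (42.7 to 59.3%) and 33.6% (31.6 to 35.7%), with 76 cells against 51.8 (ratio 1.47, 1.16 to 1.83). Without thinning the interval of this ratio included 1 (1.14, 0.994 to 1.31), as did that of *Mest* and *Plagl1* without cells above 2 times the median depth (3 cells, ratio 4.07, 0.839 to 11.9). *Mest* and *Zrsr1* were found together in 6 cells, where 5.91 is the number for independent genes, and *Mest* and *Inpp5f* in 8 cells against 11.2. For the pair *Nnat* and *Impact*, 23 WT cells had both against 19.8 (ratio 1.16, 0.735 to 1.74), so this pair was not separable from independence at this depth. *Impact* and *Inpp5f*, 1 of 20 pairs on different chromosomes, were together less often than independence gives, in 42 cells against 57.4 (ratio 0.732, 0.527 to 0.989). In the dKO-labelled library this pair was in 166 cells against 151.7 (ratio 1.09, 0.934 to 1.27).

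Among dKO-labelled cells the numbers found together were close to independence. *Mest* and *Nnat* were found together in 352 cells against 333.6 (ratio 1.06, 0.948 to 1.17), *Mest* and *Impact* in 891 against 882.5 (1.01, 0.944 to 1.08), and *Mest* and *Plagl1* in 52 against 53.3 (0.976, 0.729 to 1.28). Of 13 pairs with at least 10 cells given by independence, 10 had a ratio above 1 and 0 had an interval that left out 1. At the same minimum WT had 5 pairs, with 1 interval above 1 and 1 below. *Mest* with *Nnat* and *Mest* with *Plagl1* were under that minimum in WT. With *Mest* in 56.1% of thinned dKO-labelled cells and 6.79% of WT cells, ratios had less room above 1 in the former. The ratios of the libraries are therefore not on a like scale. The 20 pairs on different chromosomes and the 1 pair on the same chromosome, *Mest* and *Nap1l5*, were all counted.

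Levels over all UMIs show how far the WT cells with *Mest* were from the other library. *Nnat* was at 14.9 CPM (12.1 to 18.2) in the 149 WT cells with a thinned *Mest* UMI, 2.27 CPM (1.97 to 2.61) in the 2044 without, and 26.2 CPM (24.9 to 27.5) and 23.3 CPM (21.9 to 24.7) in cells with and without *Mest* in the dKO-labelled library. *Impact* was at 73.0 CPM (66.6 to 79.9), 43.8 CPM (42.4 to 45.2), 91.7 CPM (89.3 to 94.1) and 84.4 CPM (81.8 to 87.1) in the same order, and *Plagl1* at 2.31 CPM (1.29 to 3.81), 0.403 CPM (0.282 to 0.558), 3.59 CPM (3.13 to 4.10) and 3.03 CPM (2.56 to 3.57). In the dKO-labelled library too, *Nnat* and *Impact* levels were higher in cells with *Mest*, by a smaller ratio than in WT. Their counting intervals did not overlap, but these leave out the spread between cells. The shares of thinned cells with a UMI had overlapping intervals there. With and without *Mest* they were 22.1% (20.1 to 24.2%) and 19.5% (17.3 to 21.8%) for *Nnat*. For *Impact* they were 55.9% (53.4 to 58.4%) and 54.7% (51.9 to 57.5%). The WT cells with *Mest* were thus between the WT cells without it and the other library for *Nnat* and *Impact*. For *Zrsr1* (5.54 and 4.01 CPM) and *Inpp5f* (6.16 and 7.91 CPM) the intervals of WT cells with and without *Mest* overlapped. Without thinning, *Zrsr1* was at 6.25 CPM (4.80 to 8.02) in the 213 WT cells with 2 or more *Mest* UMIs. It was at 3.82 CPM (3.41 to 4.26) in the 1986 with none, so these intervals did not overlap. *Inpp5f* was at 7.06 and 7.87 CPM in the same cells, with overlapping intervals.

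**Figure D4:**
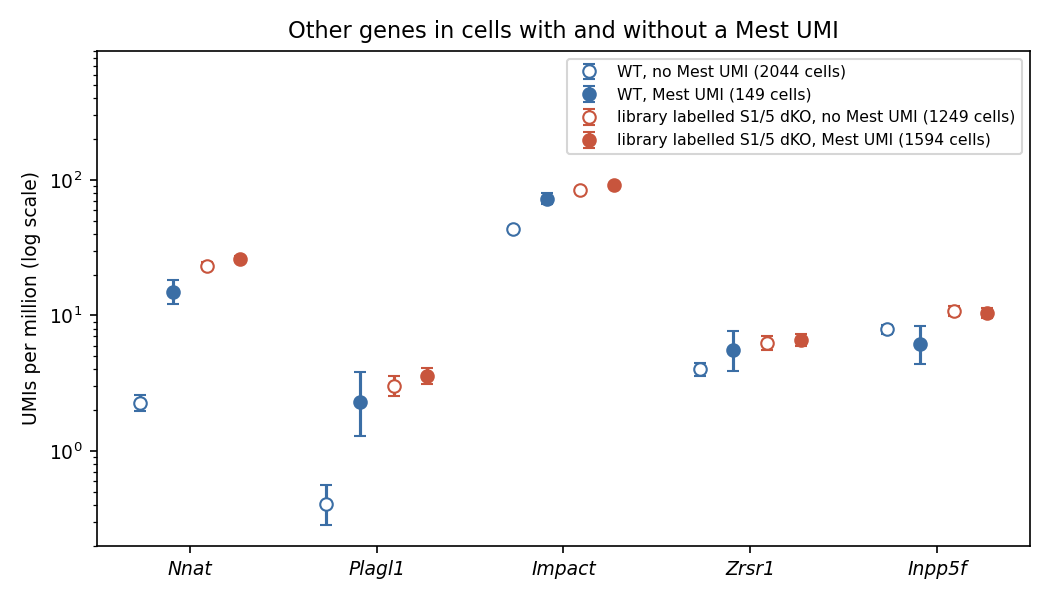
Level in CPM (log axis) of *Nnat*, *Plagl1*, *Impact*, *Zrsr1* and *Inpp5f* in cells with (filled) and without (open) a *Mest* UMI after thinning, in WT and in the dKO-labelled library, with exact 95% Poisson intervals as bars. In WT, *Nnat* is at 2.27 CPM without and 14.9 CPM with *Mest*, and in the other library at 23.3 and 26.2 CPM.

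WT cells with and without *Mest* were alike in depth and naïve markers, and differed in the summed levels of several lists. Their median depth was 39705 UMIs against 38951 in WT cells without *Mest*. Naïve markers summed to 7434 CPM (7368 to 7501) and 7454 CPM (7437 to 7472). A segment of chromosome 8 from *Borcs8* to *Smad1*, in which 94 genes with at least 200 UMIs were lower in the dKO-labelled library as a sum, was at 11422 CPM (11340 to 11504) in WT cells with *Mest* and 11356 CPM in those without, against 7830 to 7883 CPM in the other library. The sum of this segment did not differ beyond counting error between WT cells with and without *Mest*. The 25 genes outside the imprinted lists with at least 500 UMIs that were at least 2-fold higher in the dKO-labelled library, a list chosen on these libraries, summed to 183.4 CPM (173.1 to 194.1) with *Mest*, 125.8 CPM (123.4 to 128.1) without, and 346.0 to 352.0 CPM in the other library. The 6 genes chosen likewise for the other direction were at 481.2 CPM with *Mest* and 404.0 CPM without, against 180.7 to 196.3 CPM. The higher value was that of the 96 WT cells with 1 thinned *Mest* UMI (519.3 CPM, 498.3 to 541.0), while the 53 with 2 or more were at 399.5 CPM (372.7 to 427.7). Other paternally expressed genes summed to 652.4 CPM (632.9 to 672.3) with *Mest* and 549.4 CPM (544.5 to 554.3) without, and maternally expressed genes to 1079 CPM (1053 to 1104) and 1141 CPM (1134 to 1148). The 7 markers of 2-cell-like cells summed to 2.77 CPM (1.64 to 4.38) with *Mest* and 1.82 CPM (1.55 to 2.12) without, from 18 and 162 UMIs. The part of these differences in the levels of *Nnat* and *Impact* was not tested.

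The genes that followed *Mest* most closely among WT cells were ranked by Pearson's r of ln(1 + thinned UMIs) over 2193 cells of equal depth, as a description. Among 8054 genes detected in at least 5% of cells the highest were *Rpl39l* (0.149), *Stmn2* (0.116), *Impact* (0.102), *Akr1b8* (0.0927) and *Aard* (0.0902), where the 99th percentile of all genes was 0.0553. *Nnat*, detected in fewer than 5% of WT cells and so outside that ranking, had an r of 0.156 with *Mest*. For *Impact* in WT the highest was *Mest* itself. In the dKO-labelled library, over 2843 cells, *Mest* was closest to the maternally expressed *Meg3* (0.117), and its r was 0.0497 with *Nnat* and 0.0250 with *Impact*. *Meg3* was also first for *Impact* (0.115) and number 3 for *Nnat* (0.0786) there. All these correlations are weak in counts this sparse.

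Counting the 7 genes together, 53.2% of WT cells and 13.8% of cells of the dKO-labelled library had none of them at 10000 UMIs, where independent genes of the same shares give 52.2% and 12.7%. The mean number was 0.564 and 1.52 per cell. In WT, 24 cells had 3 of the genes where independence gives 12.4, and 2 cells had 4 or more where it gives 0.443. In the dKO-labelled library 321 cells had 3 (334.4 for independent genes) and 60 had 4 or more (45.3). The numbers of WT cells with 3 or more genes were thus above independence, but rest on few cells. In the dKO-labelled library the numbers with none (391 against 360.4) and with 4 or more were also above it, and that with 3 below. The variance of the number per cell was 0.464 in WT (0.430 for independent genes) and 0.888 in the other library (0.839).

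**Figure D5:**
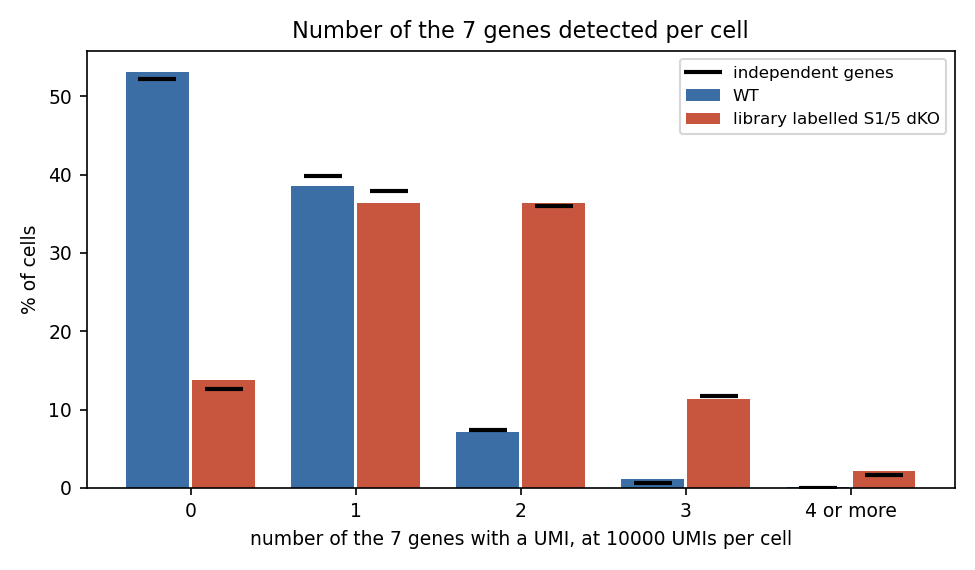
Share of cells by how many of the 7 genes had a UMI after thinning to 10000 UMIs (bars), with the share that independent genes give as black lines. In WT 53.2% of cells have none, and in the dKO-labelled library 13.8%.

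The difference between the libraries was present in each cell state examined. After thinning to equal depth, cells of each library were divided into 3 equal groups by the summed UMIs of 12 mitotic genes and of 13 naïve markers, and by whether *Sp5* or *Fgfbp1* had a UMI. *Mest* was at 8.60 to 12 CPM over the WT groups and at 83.5 to 108.6 CPM over those of the dKO-labelled library, and *Nnat* at 2.39 to 3.88 CPM and 21.9 to 31.4 CPM. Within the dKO-labelled library, the cells with the fewest naïve marker UMIs had the most *Mest*, *Nnat* and *Impact*. Of the 7704 CPM of the naïve list there, *Dppa5a* alone had 4310 CPM. *Mest* was at 108.6 CPM (105.1 to 112.2) in the lowest of the 3 groups and 83.5 CPM (80.6 to 86.4) in the highest, *Nnat* at 30.6 CPM (28.8 to 32.6) and 21.9 CPM (20.5 to 23.4), and *Impact* at 101.0 CPM (97.6 to 104.5) and 82.1 CPM (79.3 to 85.0). In WT the same groups did not differ beyond their intervals, with *Mest* at 11.9 CPM (10.7 to 13.2) and 11.2 CPM (10.1 to 12.4) and *Impact* at 45.8 CPM and 46.0 CPM. The other genes did not share the pattern of the dKO-labelled library beyond their intervals. In its lowest and highest groups *Zrsr1* went the other way, at 5.54 CPM (4.77 to 6.41) and 7.04 CPM (6.24 to 7.92). *Inpp5f* was at 10.5 CPM in both, *Plagl1* at 4.12 and 3.23 CPM and *Nap1l5* at 0.788 and 0.585 CPM. The difference between the libraries in the pattern of *Mest*, *Nnat* and *Impact* was not tested.

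Cells with a UMI of *Sp5*, a target of WNT signalling, or *Fgfbp1* had more *Nnat* and *Impact* in the dKO-labelled library. *Nnat* was at 31.4 CPM (29.1 to 33.7) with and 23.2 CPM (22.2 to 24.2) without them, *Impact* at 106.6 CPM (102.5 to 110.9) and 83.5 CPM (81.6 to 85.5), and *Mest* at 103.2 CPM (99.1 to 107.4) and 91.1 CPM (89.1 to 93.2). In WT *Impact* was at 50.8 CPM (47.5 to 54.2) and 44.6 CPM (43.2 to 46.1), whereas *Mest* was lower in cells with *Sp5* or *Fgfbp1*, at 8.60 CPM (7.30 to 10.1) against 12 CPM (11.2 to 12.8).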

How the data were processed

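UMI counts of 2 single-cell libraries were used, 1 of WT and 1 labelled S1/5 dKO. The authors aligned reads to mm10 and counted UMIs with Cell Ranger 3.0.2 (versions from the submitters' processing notes), and the deposited matrices hold these raw counts, without normalization, for 31053 genes and all barcodes. The matrices hold 100446187 and 113937221 UMIs. From these counts, cells were filtered at 1000 detected genes and 5% mitochondrial UMIs as in the study, UMIs were summed per library and divided by the total of its cells (CPM), and ratios were given where a gene reached 50 UMIs over the 2 libraries. Doublets were not removed. The 135 WT cells and 140 dKO-labelled cells whose UMIs exceeded 2 times the library median were left out in an alternative.

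For shares of cells, each cell was thinned to 10000 UMIs. Silent and active classes were fitted by maximum likelihood with each cell's UMIs as exposure. Intervals are exact (binomial or Poisson, 95%), and a count of 0 was read against a floor of 3 counts. PCR duplicates are removed by UMIs, but the spread between cultures is unknown. The ratio and its interval were tried on simulated library sums with Poisson counts, the case for which the interval is built. There 95.3% of intervals held the true ratio, and 198 of 198 changed genes had the right direction. The simulation held no spread between cells. It therefore cannot show how the interval behaves for UMIs gathered in few cells, such as those of *Mest* in WT. Python 3.11.15, numpy 2.4.6, scipy 1.17.1, pandas 2.3.3, and, for other scalings, R 4.3.3 with edgeR 4.0.16 and DESeq2 1.42.0 were used. Gene positions come from GENCODE (GRCm38), and promoters from RefSeq (GRCm38.p6). Promoters were examined for 6 of the 7 genes, and that of *Impact* was left out. The named genes are the 7 genes, their hosts and nearest protein-coding genes, the targeted genes, lists of imprinted genes and imprint regulators, and the 5 genes with the highest r. Listed *Peg13* and *Rian* were not found under those symbols. The genes, lists and states were chosen with earlier results of these data known. Which S1/5 dKO line was used is not stated.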

Additional observations from a re-analysis of the deposited data

How the results depend on the processing

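The log2 ratios of all 7 genes stayed within their counting intervals under 7 alternatives, TMM and median-of-ratios scaling, per-cell means, thinning to 10000 UMIs, at least 3000 detected genes, at most 10% mitochondrial UMIs, and removal of cells above 2 times the median depth (49 of 49 values). No barcode was shared, so no cell could be left out for that. The count of genes 2-fold or more apart, 178, was 402 with a minimum of 20 UMIs, 35 with 500, and 1544 with 1 UMI in each library. No paired analysis was possible because each group has 1 library.

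Shares of cells depend on depth. Without thinning, the shares in WT and the dKO-labelled library were 11.2% and 87.6% for *Mest*, 8.86% and 52.9% for *Nnat*, 73.5% and 89.3% for *Impact*, 1.97% and 10.4% for *Plagl1*, 15.3% and 20.3% for *Zrsr1*, 27% and 31.2% for *Inpp5f* and 0.358% and 2.20% for *Nap1l5*. At 5000 UMIs per cell they were 4.66% and 36.8% for *Mest*, 1.04% and 12% for *Nnat*, 19.4% and 34.2% for *Impact*, 1.67% and 2.96% for *Zrsr1* and 3.57% and 4.49% for *Inpp5f*, with *Plagl1* at 1.95% in the dKO-labelled library and *Nap1l5* at 0% in WT (0 of 2210 cells). Cells with none of the 7 genes then made up 72.7% and 33.6%. The order of the libraries was the same at each depth.

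In WT, *Mest* and *Nnat* were found together 1.87 times as often as independent genes at 5000 UMIs (0.226 to 6.74, 2 cells), against 4.13 times at 10000 and 4.47 times without thinning. *Mest* and *Impact* were found together 1.14 times as often without thinning, against 1.47 at 10000 and 1.70 at 5000. The active class of *Mest* in WT was 11.3% (at 101.5 CPM) without cells above 2 times the median depth. It was 11.9% (at 91.0 CPM) in cells with at least 10000 UMIs. Both were added after seeing the data. Dividing WT cells by *Mest* without thinning, also added after seeing the data, gave an *Nnat* level 8.42 times as high with as without *Mest*, where the thinned division gave 6.57, and 1.53 times as high for *Impact* (1.67 thinned). The causes of these shifts were not tested.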
